A study of Homo sapiens with 8 samples.

Results

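The 14q32 cluster is an imprinted stretch of chromosome 14 that carries long non-coding RNA genes, miRNA genes and box C/D small nucleolar RNA (snoRNA) genes on 1 strand. The genes described here were all entries of the count table that GENCODE 44 places on the plus strand of GRCh38 chromosome 14 between 100.7 and 101.1 Mb with the type miRNA, snoRNA or lncRNA. There were 103 of them among 58302 genes: 4 lncRNA genes (MEG3, MIR493HG, MEG8 and MEG9), 53 miRNA genes and 46 snoRNA genes. They ran from the start of MEG3 to the end of MEG9 (GRCh38 chr14:100779410-101072937). The window itself used no counts, but the locus was selected on measured values, because its miRNA genes had been seen to be lower in the libraries labelled siAPEX1 than in those labelled siCTRL. The differences between these groups are therefore given for its genes as a description. Where calls of the fit across all genes are named for them, they only describe size and spread. They are not evidence that the locus differs. At the edges of the window, MEG3 had 228 counts and MEG9 had 0, and the nearest lncRNA genes outside it, LINC00523 before and LINC02285 after, had 0 each.

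The study silenced APEX1, which encodes the base excision repair endonuclease APE1, to ask which RNAs change with it. Total RNA came from A549, an established human lung adenocarcinoma line, 72 h after transfection of either an siRNA against APEX1 (labelled siAPEX1, 4 libraries) or a scrambled control siRNA (labelled siCTRL, 4 libraries). The libraries were made with a ligation-free small RNA kit, modified so that primary miRNA transcripts were read as well. All 8 libraries share the cell line and the transfection, 1 line stands for the tumour type, and the labels do not say whether the libraries of a group came from separate cultures. The study calls its replicas biological, without saying how the cultures were kept apart, so part of the spread between libraries may be technical.

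In each library 1348386 to 1949886 reads were assigned to genes, fewer in the siAPEX1 libraries (at most 1619500) than in the siCTRL libraries (at least 1639796), so library size and group cannot be told apart. APEX1 itself went against the labels, with 47 to 64 counts in the siCTRL libraries and 19470 to 27916 in the siAPEX1 libraries, and the cause was not tested. The groups are therefore called "the libraries labelled siAPEX1" and "the libraries labelled siCTRL", or siAPEX1 and siCTRL libraries for short, and every direction below rests on those labels. All 6 epithelial markers examined had counts, and their summed level was 554 to 678 CPM (reads of a gene in every 1000000 after scaling) in the siCTRL libraries against 216 to 281 in the siAPEX1 libraries, with KRT8, KRT18, KRT19 and KRT7 past the thresholds used below. CDH1, another of these markers, went the other way, at a log2 fold change of 0.92 (SE 0.19). The 8 markers of blood, endothelial and stromal cells summed to 5.41 to 12.4 CPM and 7.05 to 11.1 CPM, with PECAM1 at 0. The part of these shifts in the results on 14q32 was not tested. In bulk RNA, fewer cells that express a gene and less of its RNA in each cell cannot be told apart.

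The cluster belongs to the imprinted region between DLK1 and DIO3. The protein-coding genes DLK1, RTL1 and DIO3 are expressed from the paternal chromosome, whereas MEG3 and the non-coding genes downstream of it are expressed from the maternal chromosome, where the miRNAs and the snoRNAs are thought to be cut from long transcripts of the same strand. Mature miRNAs pair with messenger RNAs through their seed, whereas box C/D snoRNAs usually guide the methylation of ribosomal or spliceosomal RNA. The copies named SNORD112, SNORD113 and SNORD114 have no known target of that kind. The locus is best known from placenta, brain and stem cells, and MEG3 is often silenced in tumours.

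From MEG3 onwards, the genes lie in blocks: 10 miRNA genes before SNORD112 (called proximal here), then the 40 named snoRNA genes SNORD112, 9 copies of SNORD113 and 30 copies of SNORD114 with MIR370 among them, then 42 miRNA genes (distal). The remaining 6 snoRNA genes have no symbol and held 1 count in all. Of the 103 genes, 78 had at least 1 count in the 8 libraries and 25 had none. For all 53 miRNA genes RefSeq (GRCh38.p14) gave mature sequences, 96 in total. The sequences shown first are those of the 12 tested miRNA genes that were past the thresholds used below, all lower in the siAPEX1 libraries. Capitals mark the seed, bases 2 to 8 from the 5′ end. The counts were made per gene and do not separate the arms of a hairpin, nor a mature miRNA from its precursor, so both arms are shown where RefSeq lists them. The 2 proximal genes are MIR337 and MIR432.
hsa-miR-337-5p: gAACGGCUucauacaggaguu
hsa-miR-337-3p: cUCCUAUAugaugccuuucuuc
hsa-miR-432-5p: uCUUGGAGuaggucauugggugg
hsa-miR-432-3p: cUGGAUGGcuccuccaugucu

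Of the distal genes, MIR539 and MIR485 were the only tested pair that shared a seed, UCAUACA, on their 3p arms.
hsa-miR-539-5p: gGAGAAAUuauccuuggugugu
hsa-miR-539-3p: aUCAUACAaggacaauuucuuu
hsa-miR-485-5p: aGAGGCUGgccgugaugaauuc
hsa-miR-485-3p: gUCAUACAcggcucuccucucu

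The other distal genes of this group each had a seed of their own among the tested genes. Those of MIR379 (3p arm) and MIR487B (5p arm) also occur in MIR411 and MIR487A, which had too few counts to be tested.
hsa-miR-379-5p: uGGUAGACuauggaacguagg
hsa-miR-379-3p: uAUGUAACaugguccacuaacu
hsa-miR-323a-5p: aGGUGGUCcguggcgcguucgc
hsa-miR-323a-3p: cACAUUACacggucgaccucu
hsa-miR-543: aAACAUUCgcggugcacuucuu
hsa-miR-495-5p: gAAGUUGCccauguuauuuucg
hsa-miR-495-3p: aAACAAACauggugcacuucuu
hsa-miR-487b-5p: gUGGUUAUcccuguccuguucg
hsa-miR-487b-3p: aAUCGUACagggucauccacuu
hsa-miR-382-5p: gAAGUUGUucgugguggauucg
hsa-miR-382-3p: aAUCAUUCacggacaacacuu
hsa-miR-409-5p: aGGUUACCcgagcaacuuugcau
hsa-miR-409-3p: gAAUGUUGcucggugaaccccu
hsa-miR-369-5p: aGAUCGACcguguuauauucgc
hsa-miR-369-3p: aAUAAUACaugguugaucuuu

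Over the whole locus, 81 different seeds stood in the 96 mature sequences and 13 of them were shared by 2 or more genes. The shared seeds belong to the MIR376, MIR329, MIR1185 and MIR487 copies among others, most of which were at or near 0 counts here. The genes that held most of the miRNA counts thus carried different seeds.

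In the siCTRL libraries the snoRNA genes were the most abundant members per length (CPM per kb of exon, from counts scaled by TMM-adjusted library sizes). SNORD114-17 was highest at 1314 CPM per kb, followed by SNORD113-9 at 994. SNORD114-23, SNORD113-7 and SNORD114-3 followed at 625, 623 and 597 CPM per kb and did not differ beyond the spread between libraries. The leading miRNA genes came next, with MIR409 at 407 and MIR495 at 381 CPM per kb, beside SNORD114-12 at 395. MEG3, the long RNA that opens the cluster, stood at 0.843 CPM per kb and MEG8 at 0.158, far under the leading small RNAs of the same strand. These 2 values were divided by all annotated exon bases, 23224 for MEG3 and 27506 for MEG8, which lowers them. Before that division MEG3 was at 19.6 CPM, near MIR337 at 21.5 CPM. The kit is made for short RNAs, and its part in the order per length was not tested. The plot of levels by position shows the blocks in both groups.

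**Figure D1:**
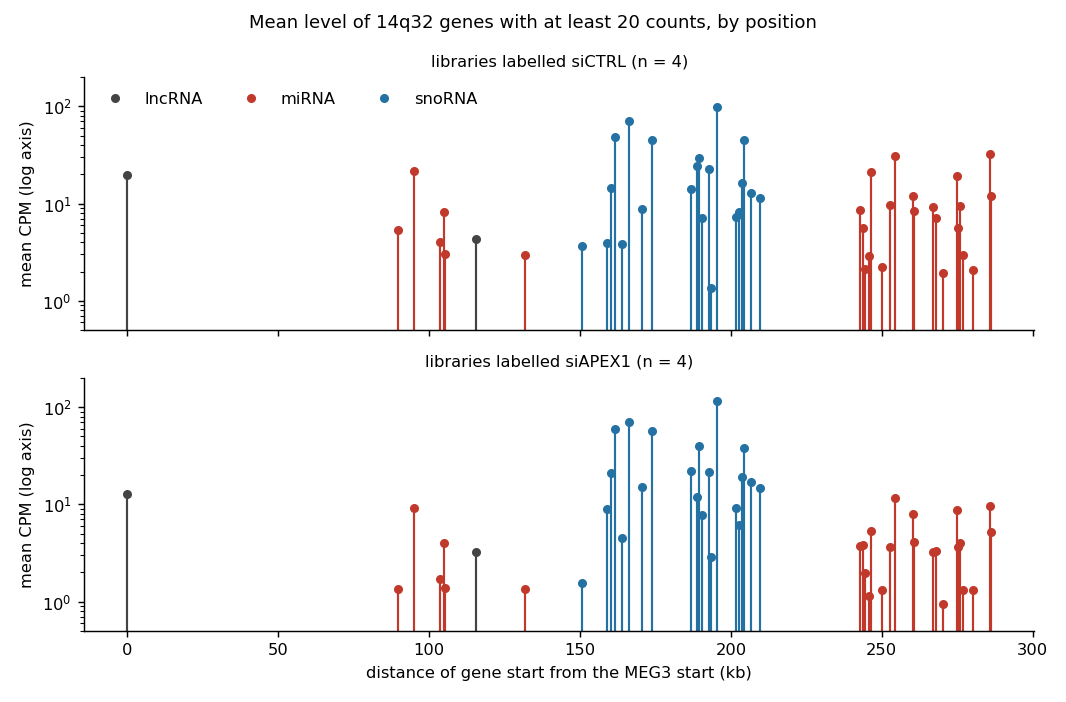
Mean CPM (log axis) of the 49 genes of the locus with at least 20 counts over all libraries, against the distance of the gene start from the MEG3 start in kb, for the 4 siCTRL libraries (top) and the 4 siAPEX1 libraries (bottom). The miRNA genes (red) stand lower in the bottom panel, whereas the snoRNA genes (blue) keep a like height, with SNORD114-17 highest in both.

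Between the groups, the blocks differed in size and direction. The distal miRNA genes summed to 217, 252, 209 and 177 CPM in siCTRL libraries 1 to 4 and to 91.8, 89.8, 89.5 and 88.6 CPM in siAPEX1 libraries 1 to 4. Every siAPEX1 library was lower than every siCTRL library, and the group means of 214 ± 30.8 and 89.9 ± 1.36 CPM (SD, n = 4 each) differ by -1.25 on the log2 scale. The proximal miRNA genes summed to 44.3, 54.9, 45.3 and 32.5 CPM against 16.9, 21.4, 15.5 and 20.2 CPM. Again the groups did not overlap, and the log2 ratio of the means was -1.26. All 53 miRNA genes together were 2.38-fold higher in the siCTRL libraries (261 ± 40.0 against 110 ± 2.62 CPM).

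The snoRNA block between these blocks did not follow them. SNORD112 to SNORD114 summed to 476, 568, 519 and 437 CPM in the siCTRL libraries and to 533, 631, 496 and 587 CPM in the siAPEX1 libraries. The groups overlapped, and their means of 500 ± 56.6 and 562 ± 59.2 CPM gave a log2 ratio of 0.17, which turned to -0.17 with library sizes alone and to -0.21 with scaling factors taken from miRNA and snoRNA genes elsewhere. Those scalings also moved the median log2 fold change of all tested genes from near 0 to -0.34 and -0.39. Relative to that median, the snoRNA block stayed higher in each. SNORD113 and SNORD114 copies had like log2 ratios of 0.18 and 0.16 under the main scaling. The lncRNA genes, most of it MEG3, stood between the small RNA classes at 24.6 ± 2.52 against 16.4 ± 2.84 CPM, a log2 ratio of -0.59, with no overlap between the groups.

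**Figure D2:**
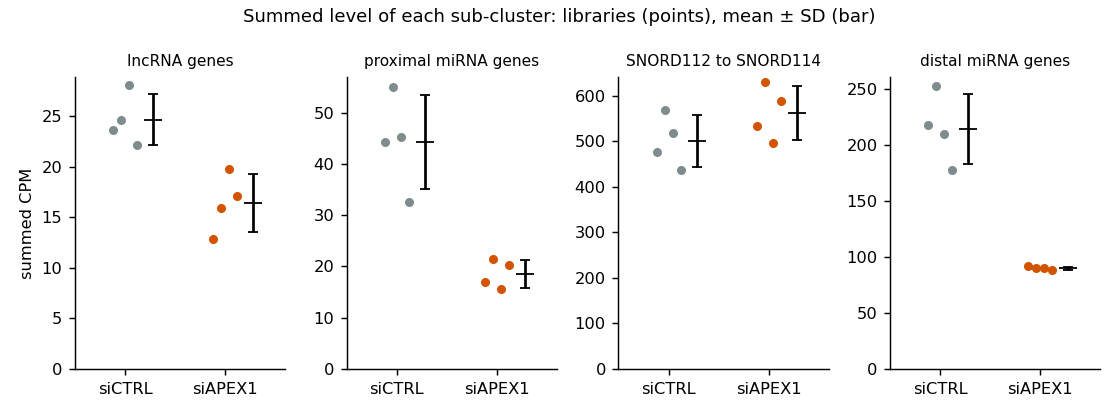
Summed CPM of the lncRNA genes, the proximal miRNA genes, the snoRNA genes SNORD112 to SNORD114 and the distal miRNA genes in each library (points), with the mean ± SD of the 4 libraries of each label. The groups are apart for the lncRNA and both miRNA blocks and overlap for the snoRNA block.

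A ratio formed within a library does not depend on how the libraries are scaled. For each count of SNORD112 to SNORD114, the siCTRL libraries held 0.558, 0.545, 0.495 and 0.486 counts of 14q32 miRNA genes, and the siAPEX1 libraries held 0.207, 0.179, 0.214 and 0.187. All siCTRL libraries were above all siAPEX1 libraries, a gap that the selection of the locus on its miRNA genes favours. The proximal and the distal miRNA genes kept the same proportion to each other, with 0.205 ± 0.016 proximal counts per distal count in the siCTRL libraries and 0.206 ± 0.032 in the siAPEX1 libraries. In the rest of the genome the ratio was also lower in every siAPEX1 library, at 0.152 ± 0.0085 miRNA counts per SNORD count in the siCTRL libraries and 0.0852 ± 0.0067 in the siAPEX1 libraries.

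**Figure D3:**
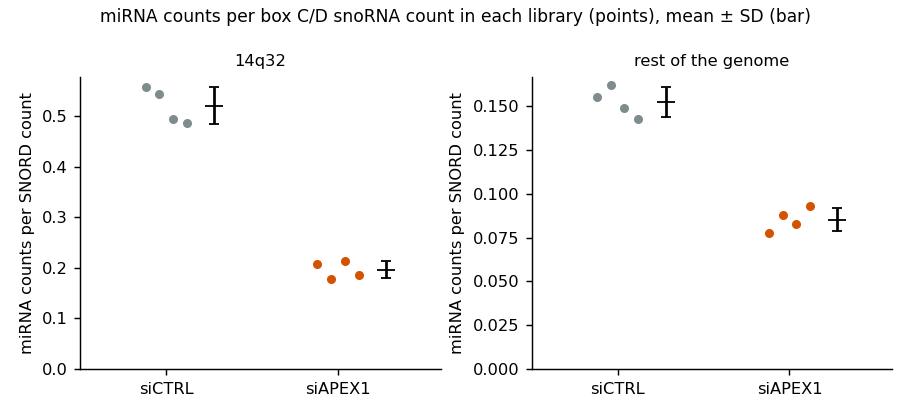
Counts of miRNA genes per count of box C/D snoRNA (SNORD) genes in each library (points) with the mean ± SD of 4 libraries, for 14q32 (left) and for the rest of the genome (right). The ratio was between 0.486 and 0.558 in the siCTRL libraries and between 0.179 and 0.214 in the siAPEX1 libraries at 14q32, and lower in the siAPEX1 libraries on the right as well.

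Against the miRNA genes outside the locus, the 14q32 miRNA genes made up a smaller share in the siAPEX1 libraries. They held 1.19, 1.24, 1.21 and 1.04 counts per 100 counts of other miRNA genes in the siCTRL libraries and 0.748, 0.635, 0.598 and 0.565 in the siAPEX1 libraries, without overlap. Because the locus was selected for lower miRNA genes in the siAPEX1 libraries, this smaller share is a description and no support for a difference. The summed level of the 1824 other miRNA genes differed by -0.35 on the log2 scale, also without overlap. Of the 90 of them tested in the fit below, 41 were lower and 7 higher by the adjusted p alone, where 15.8% and 15.9% of all tested genes were. Past both thresholds given below, 8 were lower and 2 higher, where 5.68% and 3.6% of all tested genes were. Without overlap in CPM, 34 were lower and 5 higher, where 801 and 753 of all 5368 tested genes were. The snoRNA block held 0.343 ± 0.029 counts per 100 counts of other SNORD genes in the siCTRL libraries and 0.276 ± 0.033 in the siAPEX1 libraries, and there the groups overlapped. The 273 other SNORD genes held 16.4% ± 0.44 of all counts in the siCTRL libraries and 18.2% ± 0.58 in the siAPEX1 libraries. With the main scaling their summed level was higher by 0.49 on the log2 scale in the siAPEX1 libraries, without overlap. Of the 70 of them tested in the fit below, the median log2 fold change was 0.51. By the adjusted p alone, 52 of these were higher and 7 lower.

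Of the 103 genes, 31 had enough counts to enter the fit across all genes with edgeR (about 6.14 CPM in at least 4 libraries): 13 miRNA genes, 17 snoRNA genes and MEG3. A gene was called where its log2 fold change was at least 1 in size and its adjusted p at most 0.05. Of all 5368 genes tested, 305 were called lower in the siAPEX1 libraries (5.68%) and 193 higher (3.6%). With library sizes alone these became 647 and 84, and with factors from miRNA and snoRNA genes 735 and 76. Of the 31, 13 were called lower and 0 higher (11 and 0 with DESeq2), and at an unadjusted p under 0.05 these were 15 and 7. Since the locus was chosen with this contrast known, nothing is read from these counts, nor from those by the adjusted p or by overlap given below. Moreover, 6 of the tested miRNA genes passed the filter through the siCTRL libraries alone, so that they had to differ. These were MIR432, MIR379, MIR543, MIR487B, MIR539 and MIR485. In all, 12 of the 13 tested miRNA genes were under the filter level in at least 1 siAPEX1 library, MIR495 being the exception. These 12 thus entered the fit only with the help of the siCTRL libraries, which favours lower values in the siAPEX1 libraries. Of all 5368 tested genes, 1833 were under that level in at least 1 siAPEX1 library. By the adjusted p alone, 14 were lower and 4 higher, where 15.8% and 15.9% of all tested genes were. The CPM of the groups did not overlap in 14, all lower in the siAPEX1 libraries, as in 14.9% of all tested genes.

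**Figure D4:**
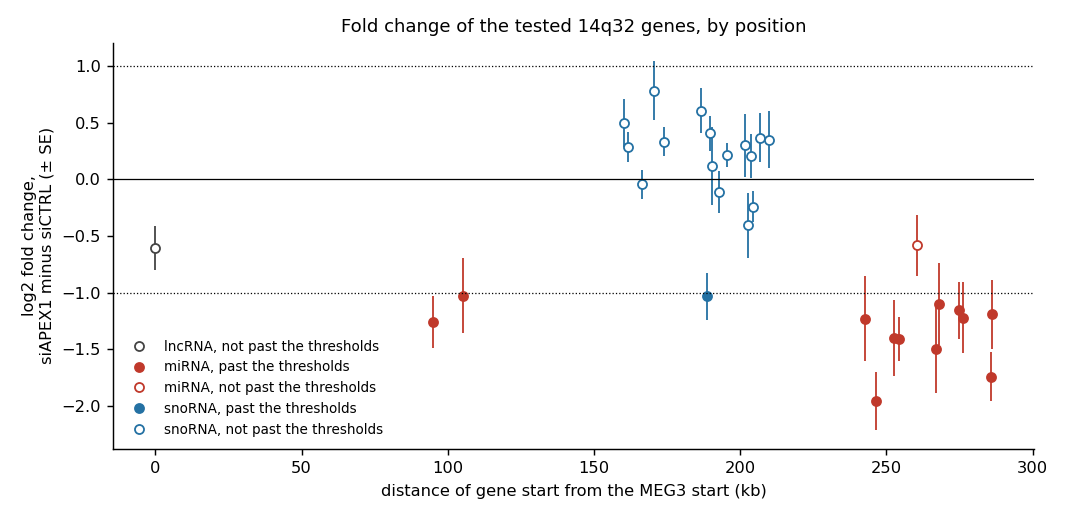
Log2 fold change (siAPEX1 minus siCTRL, with its SE) of the 31 tested genes of the locus against the distance of the gene start from the MEG3 start in kb. Filled points are past the thresholds, and dotted lines mark a log2 fold change of 1 in either direction. All 13 miRNA genes (red) lie under 0 on both sides of the snoRNA genes (blue), of which 12 of 17 lie above 0 with this scaling and 6 of 17 with library sizes alone.

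MEG3 is a long non-coding RNA with reported tumour suppressor activity. It had 42, 37, 48 and 34 counts in the siCTRL libraries and 15, 15, 21 and 16 in the siAPEX1 libraries. Scaled, this was 19.6 ± 1.96 against 12.8 ± 1.35 CPM (SD, n = 4 each), a log2 fold change of -0.61 (SE 0.20). The groups did not overlap, but the size stayed under the threshold for a call. MEG8, the host of the snoRNA block, had 6, 14, 10 and 6 counts against 1, 4, 6 and 6, too few to be tested. The ratio of siAPEX1 to siCTRL was 0.744, with a 95% exact interval of 0.392 to 1.36, which covers counting error only, as do all such intervals below. MIR493HG had 8 counts in all and MEG9 had 0.

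Among the proximal miRNA genes, MIR337 (chr14:100874493-100874585) held most counts. It had 48, 55, 47 and 28 in the siCTRL libraries and 8, 15, 10 and 14 in the siAPEX1 libraries, with no overlap in CPM and a log2 fold change of -1.26 (SE 0.23). MIR432, which lies opposite the coding gene RTL1, had 18, 20, 19 and 11 counts against 7, 4, 7 and 3. Its log2 fold change of -1.03 (SE 0.33) was close to the threshold and came to -0.995 without siCTRL library 1, -0.95 without siCTRL library 2, -0.91 without siAPEX1 library 2 and -0.81 without siAPEX1 library 4, none of which was called. The call was also lost with DESeq2 and with factors from protein-coding genes (-0.98). MIR493 was not tested but did not overlap between the groups, with 7, 16, 13 and 8 counts against 1, 2, 2 and 2 and a ratio of 0.251 (95% exact interval 0.0952 to 0.561). MIR127, whose product cuts the RTL1 messenger RNA in placenta, had 7, 13, 8 and 5 counts against 1, 2, 3 and 3, also without overlap in CPM (ratio 0.430, interval 0.181 to 0.917). MIR136 had 25 counts in the siCTRL libraries against 7 (ratio 0.441, interval 0.161 to 1.05), and its groups overlapped. MIR431, MIR433, MIR127, MIR432 and MIR136 overlap RTL1 on the other strand, and the strand setting of the count is not given in the sources used here. RTL1 itself had 0 counts.

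The distal block runs from MIR379 to MIR656, and its largest differences were in MIR323A and MIR409. MIR323A (chr14:101025732-101025817) had 50, 50, 34 and 39 counts in the siCTRL libraries and 5, 6, 7 and 10 in the siAPEX1 libraries. Its level was 21.2 ± 4.13 against 5.37 ± 1.64 CPM, a log2 fold change of -1.96 (SE 0.26), the largest of the locus in size among the tested genes. MIR409 (chr14:101065300-101065378), the highest miRNA gene per length, had 66, 83, 75 and 42 counts against 9, 16, 9 and 16. The means were 32.1 ± 6.91 and 9.68 ± 3.36 CPM, a log2 difference of -1.74 (SE 0.22). In both genes every siAPEX1 library was under every siCTRL library. MIR323A reached the filter level in only 1 siAPEX1 library and MIR409 in 3, so both entered the fit with the help of the siCTRL libraries.

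MIR543 and MIR495 are neighbours whose mature products end in the same letters, as the sequences above show. MIR495 (chr14:101033755-101033836), with the most counts of the miRNA genes, had 60, 73, 70 and 54 counts in the siCTRL libraries and 18, 11, 22 and 10 in the siAPEX1 libraries. The level was 31.3 ± 2.48 and 11.6 ± 3.94 CPM, which is -1.41 (SE 0.19) on the log2 scale. MIR543 had 14, 26, 22 and 18 counts against 3, 7, 4 and 5 and a log2 fold change of -1.40 (SE 0.33). MIR487B had 17, 26, 20 and 14 counts against 7, 0, 7 and 3, and its log2 fold change of -1.50 (SE 0.38) was -1.09 without siAPEX1 library 2, which had none. None of these genes overlapped between the groups.

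MIR485 and MIR539 share a seed on their 3p arms. Both were lower in the siAPEX1 libraries, but both passed the filter through the siCTRL libraries alone, so nothing is read from their shared direction. MIR485 had 20, 22, 20 and 16 counts against 5, 3, 6 and 7 and a log2 fold change of -1.22 (SE 0.31). MIR539 had 16, 15, 16 and 11 counts against 4, 7, 4 and 2 and a log2 fold change of -1.10 (SE 0.36), which was -0.998 without siAPEX1 library 3 and -0.85 without siAPEX1 library 4, where it was not called. The call was also lost with DESeq2. Neither gene overlapped between the groups.

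MIR382 lies inside an exon of MEG9 in GENCODE 44, next to MIR134 and MIR485, although MEG9 itself had no counts. It had 56, 41, 37 and 25 counts in the siCTRL libraries and 16, 7, 13 and 9 in the siAPEX1 libraries, a log2 fold change of -1.16 (SE 0.25). The call was lost without siCTRL library 1 (-0.95) and without siAPEX1 library 2 (-0.98). MIR369, whose 3p product is known for binding an AU-rich element of the TNF messenger RNA, had 26, 35, 22 and 15 counts against 9, 7, 7 and 4 and a log2 fold change of -1.19 (SE 0.30). It was -0.99 without siCTRL library 2 or without siAPEX1 library 4, and then not called. In both genes the groups did not overlap, the closest libraries being siCTRL library 4 and siAPEX1 library 1.

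MIR379, the first gene of the distal block, had 14, 32, 14 and 11 counts against 6, 5, 4 and 4. The groups did not overlap, but siCTRL library 2 stood well above the other libraries of its group, and the log2 fold change of -1.23 (SE 0.37) became -0.80 without it, which was not called. MIR376C, from a group of miRNA genes known for A-to-I editing, had 21, 33, 20 and 23 counts against 6, 15, 9 and 11. It was the only tested miRNA gene of the locus that was not called, at a log2 fold change of -0.58 (SE 0.27), and its groups overlapped in CPM.

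**Figure D5:**
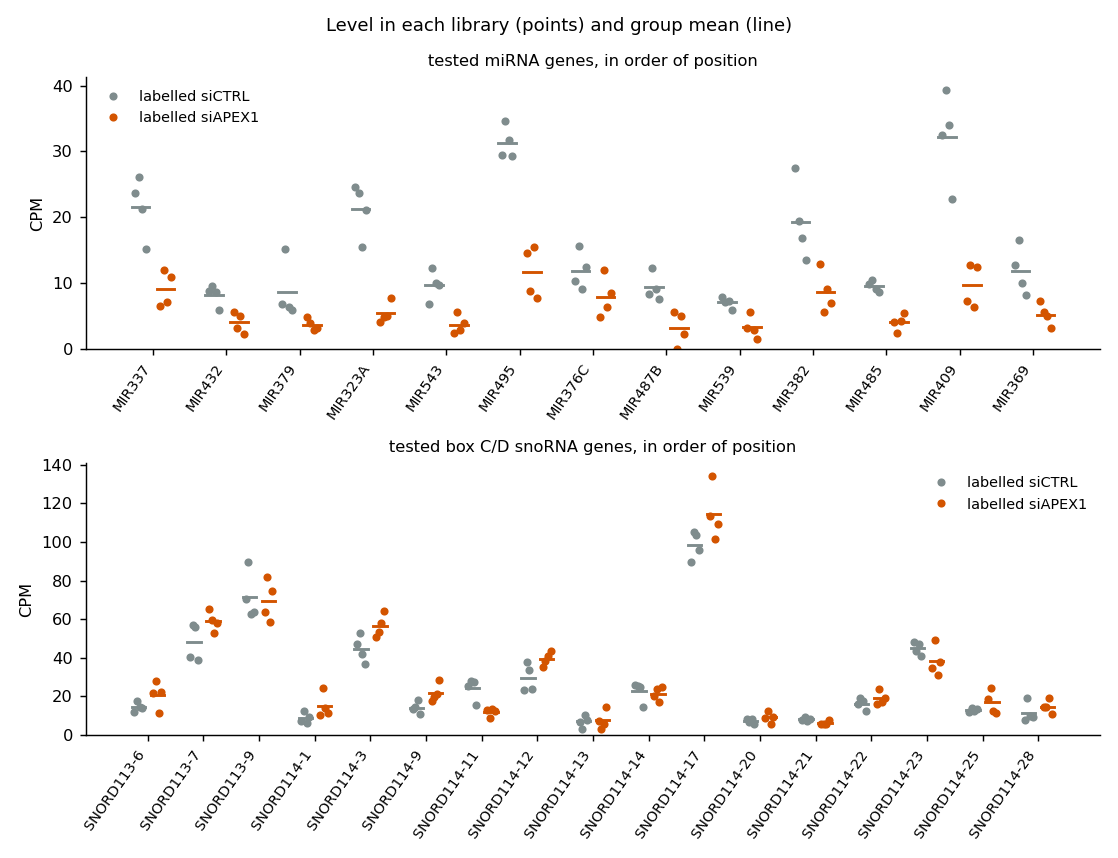
CPM of the 13 tested miRNA genes (top) and the 17 tested snoRNA genes (bottom) of the locus in each of the 8 libraries (points), with the mean of the 4 libraries of each label (line), in order of position and on an axis from 0. In the top panel only the points of MIR376C overlap between the groups, and in the bottom panel only those of SNORD114-11 do not. Of the miRNA genes, 6 passed the filter through the siCTRL libraries alone and 12 were under it in at least 1 siAPEX1 library. Of all tested genes, 14.9% were lower without overlap.

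The other 40 miRNA genes were not tested, and 33 of them had counts. In 30 of these the mean CPM was lower in the siAPEX1 libraries, the exceptions being MIR433, MIR758 and MIR1185-1 with at most 4 counts each. Together the untested miRNA genes held 493 counts in the siCTRL libraries and 158 in the siAPEX1 libraries, or 59.6 against 30.3 CPM, a log2 ratio of -0.97. The groups did not overlap in MIR380, with 5, 4, 10 and 5 counts against 2, 1, 2 and 1 (ratio 0.394, interval 0.132 to 0.989). Nor did they in MIR496, with 3, 4, 5 and 2 counts against 0, 1, 0 and 1 (ratio 0.225, interval 0.0248 to 0.980). MIR370, which lies alone between SNORD112 and SNORD113-1, had 8, 6, 5 and 5 counts against 2, 2, 2 and 1, without overlap (ratio 0.459, interval 0.167 to 1.10). MIR654, with 71 against 21 counts, had a ratio of 0.466 (interval 0.272 to 0.767) although its groups overlapped.

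The remaining untested miRNA genes with at least 20 counts had ratios whose intervals included 1. They were MIR411 (46 against 20 counts), MIR134 (47 against 19), which controls the shape of dendritic spines in rodent neurons, MIR323B (25 against 7), MIR299 (17 against 10), MIR494 (18 against 7), MIR154 (17 against 7) and MIR655 (16 against 5). MIR299 came closest to an even level, with a ratio of 0.926 (interval 0.379 to 2.14). The other 20 miRNA genes with counts had at most 16 in all libraries together, and 7 had none.

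Of the 40 snoRNA genes SNORD112 to SNORD114, 17 were tested, 11 had too few counts and 12 had none. SNORD114-17 (chr14:100974806-100974880) held most counts of the locus, with 182, 222, 229 and 177 in the siCTRL libraries and 141, 169, 144 and 141 in the siAPEX1 libraries. After scaling the level was 98.6 ± 7.31 against 115 ± 13.95 CPM, a log2 fold change of 0.21 that turned to -0.17 with factors from miRNA and snoRNA genes, and the groups overlapped. SNORD113-9 had 143, 189, 138 and 118 counts against 79, 103, 83 and 96, which came to 71.6 ± 12.4 and 69.6 ± 10.5 CPM. Its log2 fold change was -0.05 (SE 0.12), and its range over the other scalings and left-out libraries was -0.43 to 0.08.

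SNORD113-7 had 82, 120, 123 and 72 counts against 81, 75, 75 and 75, with a log2 fold change of 0.28 (SE 0.13). SNORD114-3 had 96, 112, 93 and 68 counts against 63, 67, 82 and 83, with a log2 fold change of 0.33 (SE 0.13). SNORD114-12 had 47, 80, 74 and 44 counts against 44, 48, 58 and 56, with a log2 fold change of 0.41. In these 3 the raw counts were similar or lower and the scaled level higher in the siAPEX1 libraries, and for SNORD113-7 and SNORD114-3 the sign turned with factors from miRNA and snoRNA genes (-0.10 and -0.05). SNORD114-23 had 98, 92, 104 and 76 counts against 43, 62, 44 and 49 and a log2 fold change of -0.24. SNORD114-14 had 53, 54, 55 and 27 counts against 25, 30, 24 and 32 and a log2 fold change of -0.11. SNORD114-22 had 33, 40, 39 and 23 counts against 20, 30, 24 and 25 and a log2 fold change of 0.21, which was -0.13 with library sizes alone and -0.17 with factors from miRNA and snoRNA genes. The groups overlapped in each of these copies.

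The 4 copies that passed the adjusted p alone in the higher direction were SNORD114-1, SNORD114-3, SNORD114-9 and SNORD114-12. SNORD114-9 had 27, 31, 40 and 20 counts against 22, 25, 30 and 37 and a log2 fold change of 0.60. SNORD114-1 had 15, 26, 14 and 17 counts against 13, 31, 20 and 15 and a log2 fold change of 0.78, the largest of the tested copies. This count of 4 depends on the fit: it was 0 with library sizes alone, with factors from miRNA and snoRNA genes and with DESeq2, 1 without siCTRL library 4 or siAPEX1 library 4, 2 without siCTRL library 1 or 3, and 7 without siCTRL library 2. The other tested copies, SNORD113-6, SNORD114-13, SNORD114-20, SNORD114-21, SNORD114-25 and SNORD114-28, had 98 to 226 counts each and log2 fold changes between -0.41 (SNORD114-21) and 0.50 (SNORD113-6). Of these, SNORD114-13, SNORD114-20, SNORD114-25 and SNORD114-28 were above 0 with the main scaling and below it with factors from miRNA and snoRNA genes.

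SNORD114-11 (chr14:100968111-100968185) was the exception among the tested copies of the snoRNA block. The untested SNORD113-3, described below, was also lower in the siAPEX1 libraries without overlap. SNORD114-11 had 52, 59, 61 and 29 counts in the siCTRL libraries and 16, 11, 19 and 16 in the siAPEX1 libraries, without overlap. The level was 24.2 ± 5.77 against 11.9 ± 2.12 CPM, a log2 fold change of -1.03 (SE 0.21). This value is close to the threshold, and the call was lost without siCTRL library 2 (-0.96), siCTRL library 3 (-0.96) or siAPEX1 library 2 (-0.89), and with factors from protein-coding genes (-0.99). Of its neighbours, SNORD114-10 on the upstream side had 4 counts and was not tested, and the next copies downstream, SNORD114-12 and SNORD114-13, had log2 fold changes of 0.41 and 0.12 with the main scaling.

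The first 22 bases of this copy are shown beside those of its neighbour copies and of the copies with most counts, because they differ in box C. This motif near the 5′ end, ATGATGA or GTGATGA as searched here on the sense strand within the first 20 bases, is bound by the core proteins of the snoRNP. Capitals mark it, and the sequences are those of the GENCODE 44 transcripts (GRCh38, plus strand).
SNORD113-7: tggatcaATGATGAgtatgcgt
SNORD113-9: tggatcaATGATGAgtaccctg
SNORD114-3: tggaccaATGATGAccactggt
SNORD114-11: tggaccagtgatggtgactggt
SNORD114-12: tggaccaATGATGAcaaatacc
SNORD114-13: tggaccaGTGATGAccactggt
SNORD114-14: tggaccaATGATGAcaactgcc
SNORD114-17: tggaccaATGATGAcaaatggt

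Box C in these letters was present in 28 of the 39 SNORD113 and SNORD114 copies and box D (CTGA, within the last 15 bases) in 38. Of the 17 tested copies, 16 had both. SNORD114-11 was the 1 tested copy without a match to box C, and it was also the 1 tested copy called lower, a coincidence looked for after its values were seen. Of the 12 copies with no counts, 6 had both motifs. A missing match says only that these letters are not in the window.

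Reads of the SNORD114 copies are hard to assign because the copies resemble each other. Over all 39 copies of SNORD113 and SNORD114 the identity to the closest other copy was 70.9% to 94.4%, with a median of 88.9%. Tested copies shared up to 94.4% with another copy, and the share of their 20-base words found in no other snoRNA gene of the locus fell to 20.8% in SNORD114-21. SNORD114-11 was 84.0% identical to SNORD114-13, its closest copy, and 89.3% of its 20-base words were its own. The counting kept only reads with a single best place in the genome, so for the most similar copies (SNORD114-9, SNORD114-21, SNORD114-23, SNORD114-25 and SNORD114-28) the split between copies is uncertain. In GENCODE 44, 19 of the snoRNA genes lie inside exons of MEG8 on the same strand, and 11 of these had counts, so the counts depend on the gene models used, whose release is not given in the sources used here.

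Of the 11 untested copies with counts, 4 had at least 20. SNORD113-5 had 7, 5, 10 and 10 counts against 6, 20, 7 and 13, with overlapping groups and a ratio of 2.26 (95% exact interval 1.41 to 3.67). It entered the fit and was called higher when siAPEX1 library 1 or siAPEX1 library 3 was left out, at log2 fold changes of 1.38 and 1.41. SNORD113-3 had 6, 6, 10 and 8 counts against 2, 2, 2 and 2, which did not overlap and gave a ratio of 0.420 (interval 0.166 to 0.938). SNORD113-8 (32 against 23 counts) had a ratio of 1.13 (interval 0.633 to 1.996) and SNORD114-15 (11 against 15 counts) a ratio of 2.15 (interval 0.922 to 5.17). These 4 copies thus differed in direction among themselves. SNORD114-5 had 5 counts in the siCTRL libraries and 0 in the siAPEX1 libraries, and the other copies had at most 8 in all.

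The genes that flank the cluster were examined from a list of 12 genes in the table. The imprinted protein-coding genes of the paternal chromosome were at or near 0, with 2 counts for DLK1, 0 for RTL1 and 1 for DIO3 in all 8 libraries. Of the 5 neighbours tested, WARS1, the cytosolic tryptophanyl-tRNA synthetase, was the only one called. It had 46, 55, 42 and 43 counts in the siCTRL libraries and 12, 4, 5 and 4 in the siAPEX1 libraries, a log2 fold change of -2.22 (SE 0.27, edgeR, adjusted p = 1.05e-08). DYNC1H1, a motor protein subunit, differed by -0.54 (adjusted p = 0.0011) and HSP90AA1, a cytosolic chaperone, by 0.58 (adjusted p = 3.29e-06), under the threshold of size. YY1 and PPP2R5C did not pass, at -0.06 and -0.11. The 5 tested genes thus did not share 1 direction, with HSP90AA1 as the only one above 0. WDR25, BEGAIN, DLK1, RTL1 and DIO3 had too few counts to be tested, so nothing is said of their direction.

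Among 36 imprinted genes elsewhere in the genome, 13 were tested, with a median log2 fold change of 0.05 against 0.00 for all tested genes. Of these, 1 was called lower and 2 were called higher. PLAGL1, a zinc finger transcription factor, had 46, 73, 53 and 85 counts against 116, 118, 143 and 113, and rose by 1.58 on the log2 scale (SE 0.14, edgeR, adjusted p = 5.09e-12). ZDBF2 rose by 1.13 (SE 0.29, adjusted p = 0.00261), and its call was lost with library sizes alone (0.79), with miRNA and snoRNA factors (0.75) and without siCTRL library 1 (0.95) or 3 (0.9997). SLC22A18, a transporter, fell by 1.05 (SE 0.32, adjusted p = 0.00979), a call lost with DESeq2 and without siCTRL library 1 (-0.94) or 3 (-0.96) or siAPEX1 library 2 (-0.82) or 4 (-0.95). The imprinted genes outside 14q32 thus went both ways.

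Of 19 genes of miRNA biogenesis, 9 were tested, and DICER1, which cuts precursors into mature miRNAs, was the only one called. It had 44, 36, 38 and 28 counts in the siCTRL libraries and 45, 43, 58 and 57 in the siAPEX1 libraries, a rise of 1.13 on the log2 scale (SE 0.16, edgeR, adjusted p = 2.66e-07), which was 0.79 with library sizes alone and 0.74 with miRNA and snoRNA factors, both under the threshold of size. By the edgeR adjusted p alone, DDX17 was also lower, at -0.50 (adjusted p = 0.00798), and TNRC6B higher, at 0.43 (adjusted p = 0.0498). DROSHA, which cuts primary transcripts, was at 0.03 (SE 0.34, adjusted p = 0.964), with 9 to 18 counts in the siCTRL libraries and 4 to 14 in the siAPEX1 libraries. Of 11 box C/D snoRNP genes, 9 were tested and PIH1D1, an assembly factor, fell by 1.09 (SE 0.32, adjusted p = 0.00795), a call lost without siCTRL library 1 (-0.94) or siAPEX1 library 4 (-0.78), whereas the methyltransferase FBL was at -0.20 (adjusted p = 0.173). Of 20 imprint and DNA methylation factors, 9 were tested and 0 called by edgeR or by DESeq2, while 4 had an unadjusted p under 0.05. By the adjusted p alone 1 was lower and 2 were higher, with MEF2C at 0.93 (adjusted p = 1.19e-06), SUZ12 at 0.57 (adjusted p = 0.0197) and TRIM28 at -0.33 (adjusted p = 0.0426).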

How the data were processed

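The authors prepared small RNA libraries in quadruplicate from A549 total RNA, sequenced them single-end, trimmed adapters with cutadapt, aligned reads to GRCh38 with STAR 2.5.3a and counted reads per gene with its GeneCounts mode on an Ensembl annotation, whose release and strand column are not given in the sources used here. The deposited table holds whole, unnormalized counts of 58302 genes in 8 libraries. In that mode reads with several best places, or on several genes, are not counted.

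Genes were placed with GENCODE 44 (57532 matched by identifier). Counts were fitted with edgeR 4.0.16 (quasi-likelihood, TMM factors, filterByExpr at min.count 10 and min.total.count 15, Benjamini-Hochberg over 5368 genes) with a group term only. CPM are counts in 1000000 of the TMM-adjusted library size, and block sums and ratios are descriptions. Intervals of ratios are exact (Clopper-Pearson, 95%). On simulated counts for 4989 genes in this comparison, all 50 and 40 genes with log2 changes of 2 and -2 were called, 20 of 50 and 15 of 39 of those with 1 and -1, and 3 of 4810 unchanged ones. The simulation gave every gene the same spread (biological coefficient of variation 0.083), so these rates need not hold for the real counts. Depth was 1348386 to 1949886 counts per library. Libraries of a group differed beyond sampling noise (chi-square per degree of freedom 2.02 to 4.27), so none was counted as a duplicate.

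The members, gene lists and tests were chosen with earlier results of these data known. Named are all tested genes of the locus, those with at least 20 counts, those whose groups do not overlap in CPM, and the list genes past the thresholds. Alternatives were other scalings and filters, left-out libraries, a replicate block and DESeq2 1.42.0. Other gene classes in the window were not analysed here. 1 table column carries a number that differs from its sample's title and was matched by group and replicate.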

Additional observations from a re-analysis of the deposited data

Results flagged for a closer look

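In 3 of 70 groups of 4 libraries examined, 1 library stood apart from the others of its label by Dixon's criterion, and chance flags about 1 in 20 such groups. MIR379 was at 15.2 CPM (32 counts) in siCTRL library 2 against 5.95 to 6.88 CPM in the other siCTRL libraries. SNORD114-14 was at 14.6 CPM (27 counts) in siCTRL library 4 against 24.9 to 26.1 CPM in the others. SNORD114-21 was at 7.77 CPM (10 counts) in siAPEX1 library 4 against 5.56 to 5.64 CPM in the others, a difference of few reads. No library stood apart in more than 1 gene.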

How the results depend on the processing

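The count of 13 genes of the locus called lower was 2 with at least 10 counts in every library, where 16 of its genes remained to be tested, 11 with DESeq2, 13 with the replicate block and 9 to 14 without 1 library. The count called higher, 0, was 1 with all genes of at least 1 count or with a log2 threshold of 0.75, 4 by the adjusted p alone, and 0 to 1 without 1 library. Of all genes, 305 lower and 193 higher became 647 and 84 with library sizes only, 735 and 76 with factors from miRNA and snoRNA genes, 648 and 295 with all genes of at least 1 count, 100 and 81 with at least 10 counts in every library, 530 and 404 with the threshold of 0.75, 846 and 856 by the adjusted p alone, 301 and 193 with the replicate block, and 313 to 375 and 215 to 234 without 1 library. The log2 ratios with library sizes only and with miRNA and snoRNA factors were -0.93 and -0.98 (lncRNA genes), -1.59 and -1.64 (proximal miRNA genes), -1.58 and -1.63 (distal miRNA genes) and -0.17 and -0.21 (SNORD112 to SNORD114, reversed from 0.17). Without 1 library they ranged from -0.66 to -0.46, -1.38 to -1.14, -1.33 to -1.16 and 0.11 to 0.25. Of 512 log2 fold changes of single genes under alternatives, 481 moved by less than the spread between libraries and 31 by more. Some of these 31 also changed sign. With miRNA and snoRNA factors, SNORD113-7 went from 0.28 to -0.10 and SNORD114-3 from 0.33 to -0.05. MEG3 no longer passed the adjusted p without siCTRL library 3 without siAPEX1 library 1, 2 or 4, or with DESeq2. Same-numbered libraries did not deviate together (correlations -0.0373 to -0.00348), so the numbers give no pairing.

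Few reads limit these data: of the 72 untested genes of the locus, 25 had no counts and 29 had at most 16 in all, so that only their sums can be compared.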
